A study of Mus musculus with 4 samples.

Results

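Collagens are the main structural proteins of the extracellular matrix, and 41 of the 21046 genes in a single-nucleus expression table of mouse kidney cortex encode collagen chains. The 41 were taken by symbol alone, as every row named Col, a number, a and a number. They were followed over all 23 clusters of nuclei and all 4 libraries. The study placed nuclei from the cortex of C57BL/6J mice of 4 genotypes into droplets on the 10X Chromium system, with 1 library for each genotype. In Klf4deltaEC, the transcription factor Klf4 is deleted in endothelial cells. Nos3-/- lacks endothelial nitric oxide synthase, and Klf4deltaECNos3-/- joins both changes. The control, Klf4flox/flox, carries the floxed Klf4 alleles with no deletion named. The labels do not name the driver of the endothelial deletion, the age of the mice or whether a library holds 1 mouse or several.

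Each collagen molecule is built from chains that wind around each other, and the chains a cell makes set which matrix it can lay down. Type IV chains form the sheet-like network of basement membranes. Col4a1 and Col4a2 are paired in nearly all of them, Col4a3, Col4a4 and Col4a5 make up the mature network of the glomerular filter and of some tubules, and Col4a6 joins Col4a5 in Bowman's capsule and smooth muscle. Fibrillar collagens such as types I, III and V form the cables of the interstitium, and the smaller families coat those cables, anchor them or sit in cell membranes.

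The type IV genes lie in head-to-head pairs that are read away from each other. The pairs differ in how close their starts lie, so the start windows of 3 genes are shown. On chromosome 8, Col4a2 (11312805 to 11449287, plus strand) and Col4a1 (11198423 to 11312826, minus strand) overlap at their annotated starts. On chromosome 1, Col4a3 (82586921 to 82722059, plus strand) and Col4a4 (82448423 to 82586849, minus strand) have 71 bases between their starts. On chromosome X, Col4a5 (141475385 to 141689234, plus strand) and Col4a6 (141165403 to 141474076, minus strand) have 1308 bases between theirs. Gene coordinates are from GENCODE M21 on GRCm38. The windows are RefSeq start windows on GRCm38.p6, from 250 bases before the start to 50 after it, written 5′ to 3′ on the gene's own strand. Capitals mark the 78 bases that the Col4a1 and Col4a2 windows share (chr8:11312777-11312854), which are reverse complements of each other. For Col4a4 they mark the 71 bases between its annotated start and that of Col4a3.
Col4a1, chr8:11312777-11313076, minus strand: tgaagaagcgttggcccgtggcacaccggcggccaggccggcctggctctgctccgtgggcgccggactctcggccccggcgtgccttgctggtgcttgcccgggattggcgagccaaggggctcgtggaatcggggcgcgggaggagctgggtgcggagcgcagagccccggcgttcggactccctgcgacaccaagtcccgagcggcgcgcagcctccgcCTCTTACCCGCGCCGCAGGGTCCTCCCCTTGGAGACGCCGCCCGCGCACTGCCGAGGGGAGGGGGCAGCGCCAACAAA
Col4a2, chr8:11312555-11312854, plus strand: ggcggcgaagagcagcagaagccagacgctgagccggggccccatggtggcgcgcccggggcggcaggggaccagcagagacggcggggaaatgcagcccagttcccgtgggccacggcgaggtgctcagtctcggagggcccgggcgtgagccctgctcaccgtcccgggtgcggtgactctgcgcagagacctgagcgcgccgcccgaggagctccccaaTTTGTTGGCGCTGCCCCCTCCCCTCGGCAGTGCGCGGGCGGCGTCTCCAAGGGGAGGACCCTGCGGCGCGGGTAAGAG
Col4a4, chr1:82586800-82587099, minus strand: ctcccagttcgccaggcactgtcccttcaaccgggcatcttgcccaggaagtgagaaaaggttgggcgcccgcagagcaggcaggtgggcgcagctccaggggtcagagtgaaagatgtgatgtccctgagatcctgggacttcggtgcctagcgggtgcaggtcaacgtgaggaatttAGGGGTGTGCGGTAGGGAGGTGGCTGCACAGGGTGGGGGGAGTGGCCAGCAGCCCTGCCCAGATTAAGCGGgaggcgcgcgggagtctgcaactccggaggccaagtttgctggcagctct
Of the 41 genes, 33 matched a RefSeq window, with 35 windows in all, and 5 of the 6 type IV genes did. The GC box letters GGGCGG, on either strand, were found in 22 of the 35 windows (62.9%), against 35.7% of all 32851 RefSeq windows of the same length. CCAAT was found in 12 windows (34.3%), against 37.4% of all, and TATAAA in 5 (14.3%), against 13.6%, again on either strand. A match is a match of letters only. The Col4a4 window holds none of the 3 motifs.

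All levels are mean UMIs (unique molecular identifiers, which count RNA molecules) per 10000 UMIs, averaged over the nuclei of a cluster. Brackets are 95% counting intervals on UMI numbers inferred from the table. They cover counting error only, and a single library per genotype gives no test, standard error or p-value. Nuclei, as inferred, numbered 6883 in the library labelled Klf4deltaEC, 7004 in Nos3-/-, 5491 in Klf4deltaECNos3-/- and 6766 in the control, 26144 in all. Nuclei-weighted median depths were 4126 UMIs in Klf4deltaEC, 2351 in Nos3-/-, 5390 in Klf4deltaECNos3-/- and 4753 in the control. Clusters 0 to 19 held 54 to 891 nuclei in a library, and clusters 20 to 22 held 12 to 88. Clusters were named from marker genes that include no collagen. Clusters 1, 7, 12, 17, 18 and 21 matched no list clearly, so these 6 are unnamed. Cluster 12 was also shallow.

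In the endothelial-like cluster 10, Klf4 was at 0.779 (0.533 to 1.1) in the library labelled Klf4deltaEC, 0.445 (0.264 to 0.702) in Nos3-/-, 0.824 (0.547 to 1.19) in Klf4deltaECNos3-/- and 0.621 (0.406 to 0.91) in the control. Nos3 was at 0.93 (0.659 to 1.28) in Klf4deltaEC, 1.52 (1.16 to 1.95) in Nos3-/-, 2.07 (1.61 to 2.61) in Klf4deltaECNos3-/- and 1.26 (0.946 to 1.65) in the control. Thus no library showed the lower level that its label would give. Nos3 was in fact higher in both libraries with the Nos3-/- label, at 1.52 and 2.07, than in Klf4deltaEC at 0.93 and the control at 1.26. The interval of the control overlaps both. Tags at the 3′ end that lie outside a removed part would not show a deletion, and the labels do not say which part was removed. Neither this nor any other cause of these levels was tested. Genotype names below are therefore library labels. The library labelled Nos3-/- also held more proximal tubule RNA in cluster 10, where the 9 markers of that segment summed to 20.2 in Klf4deltaEC, 51.1 in Nos3-/-, 16.5 in Klf4deltaECNos3-/- and 24.6 in the control.

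Of the 41 collagen genes, 21 reached 0.5 per 10000 in their leading cluster, the cluster with the highest mean over the 4 libraries. Outside the family 7862 genes reached the same level, in a table of 21046 genes in all. The last to reach it were Col19a1 at 0.647 and Col6a6 at 0.658, and the first below it was Col16a1 at 0.325. By structural family, 6 of 6 type IV genes and 6 of 10 fibrillar genes reached it. So did 2 of 2 multiplexins (basement membrane zone collagens with interrupted helices), 2 of 6 beaded-filament, 2 of 7 fibril-associated, 1 of 3 short-chain and 1 of 4 transmembrane genes, and Col26a1. The counts by family can also depend on gene length, since long genes give more UMIs in nuclear libraries. They are not corrected for it. Stromal-like cluster 13 led for 8 of the 21, podocyte-like cluster 15 for 2 and urothelium-like cluster 20 for 2. The other 9 were led by clusters of tubule cells or by unnamed cluster 1, whose leading genes include Cyp7b1 and Mep1b. Among clusters 0 to 19, 14 of the 21 had the same leading cluster in all 4 libraries. The share of all genes that do so is not given, so this count has no background. The clusters were made from the same measurements, so a leading cluster is a description and not a test.

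Summed over the 41 genes, collagen RNA in podocyte-like nuclei took 59.1 of 10000 UMIs in the library labelled Klf4deltaEC, 52.1 in Nos3-/-, 60.4 in Klf4deltaECNos3-/- and 58.6 in the control. The mean sum there was 57.6, and type IV genes gave 95.5% of it, so the sum mainly follows those genes. Unnamed cluster 18 had the next highest mean sum, 50.5. In Klf4deltaEC its sum of 84.5 lay above the podocyte-like 59.1. The lowest mean sum among clusters 0 to 19 was 19.2, in the intercalated cell-like cluster 14. Nuclear libraries also prime inside introns, so long genes give more UMIs. Levels are therefore compared between clusters and libraries and not between genes. The type IV share of the sum is likewise not corrected for gene length.

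**Figure D1:**
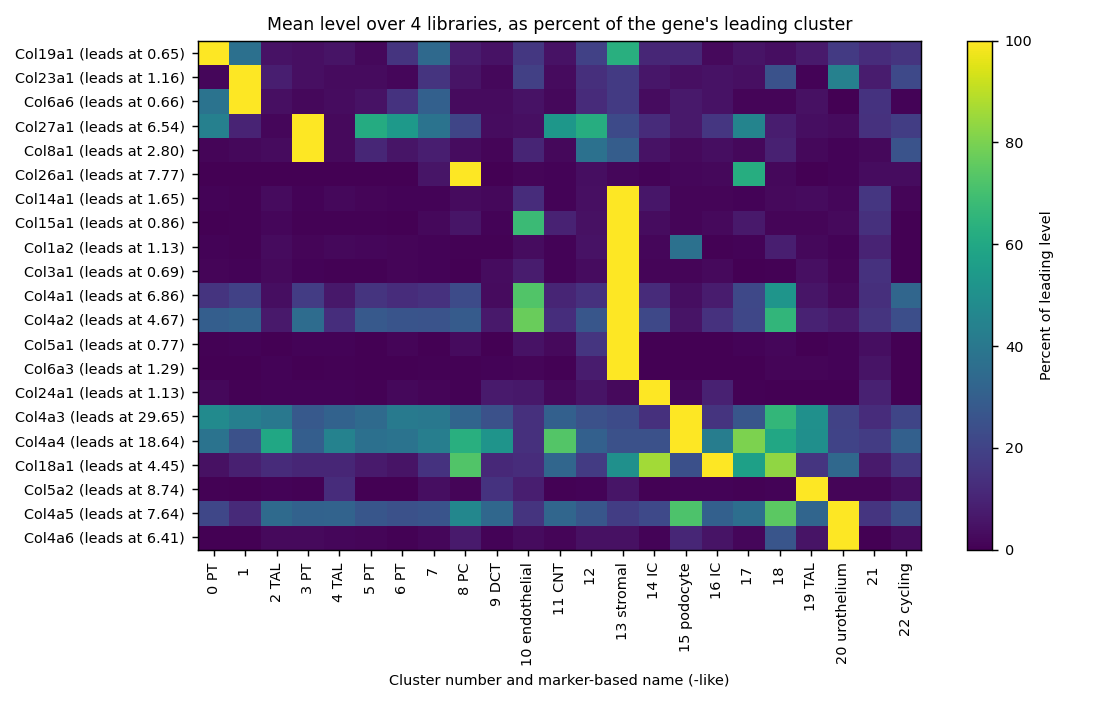
Mean level over the 4 libraries of the 21 collagen genes that reach 0.5 per 10000, by cluster, as percent of each gene's leading cluster (colour; the leading level per 10000 is in brackets). A block of 8 genes is brightest in stromal-like cluster 13, Col4a3 and Col4a4 are spread over most clusters, and Col24a1, Col5a2 and Col8a1 each stand out in 1 tubule cluster.

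Col4a1 and Col4a2, the chains of the common basement membrane network, were highest in stromal-like cluster 13 and next in endothelial-like cluster 10. Col4a1 in cluster 13 was at 6.67 (6.0 to 7.39) in Klf4deltaEC, 7.92 (7.12 to 8.78) in Nos3-/-, 6.6 (5.55 to 7.79) in Klf4deltaECNos3-/- and 6.27 (5.42 to 7.21) in the control. In cluster 10 it was at 5.31 (4.63 to 6.06) in Klf4deltaEC, 3.15 (2.62 to 3.74) in Nos3-/-, 6.36 (5.54 to 7.27) in Klf4deltaECNos3-/- and 5.21 (4.54 to 5.95) in the control. The endothelial-like level was thus lowest in the library labelled Nos3-/-, where the interval lies below the other 3. The log2 ratio in cluster 10 was -0.71 (-1.05 to -0.41) for Nos3-/- over control and 0.99 (0.69 to 1.34) for Klf4deltaECNos3-/- over Nos3-/-. The 10 endothelial markers were lower too, summing to 129 in Klf4deltaEC, 64.2 in Nos3-/-, 103 in Klf4deltaECNos3-/- and 110.0 in the control, with 1 of 10 higher in Nos3-/- than in the control. Their part in the Col4a1 difference was not tested.

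Col4a2 in cluster 13 was at 5.1 (4.52 to 5.73) in Klf4deltaEC, 5.42 (4.76 to 6.14) in Nos3-/-, 3.35 (2.62 to 4.23) in Klf4deltaECNos3-/- and 4.83 (4.09 to 5.67) in the control. Its levels in cluster 10 were 3.79 (3.22 to 4.43) in Klf4deltaEC, 3.0 (2.49 to 3.58) in Nos3-/-, 3.95 (3.3 to 4.68) in Klf4deltaECNos3-/- and 3.71 (3.15 to 4.34) in the control. Col4a2 thus led in cluster 13 in 3 libraries and in cluster 10 in the library labelled Klf4deltaECNos3-/-. Podocyte-like nuclei had little of either gene. Col4a1 there was at 0.193 in Klf4deltaEC, 0.328 in Nos3-/-, 0.214 in Klf4deltaECNos3-/- and 0.304 in the control. Col4a2 there was at 0.197 in Klf4deltaEC, 0.493 in Nos3-/-, 0.198 in Klf4deltaECNos3-/- and 0.133 in the control.

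Across clusters the overlapping pair moved closely together. Over the 20 clusters, the Pearson correlation of mean levels on the log2 scale was 0.97 for Col4a1 with Col4a2, and 0.93 to 0.96 within single libraries. The points share libraries and depth. The same measure was 0.59 for Col4a3 with Col4a4 (0.52 to 0.68 within libraries) and 0.71 for Col4a5 with Col4a6 (0.61 to 0.72). Col4a4 followed Col4a5, on another chromosome, at 0.82, and ran opposite to Col4a1 at -0.52. The sources used here do not say whether counting used strand, so reads from the stretch where Col4a1 and Col4a2 overlap cannot be assigned to either gene.

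Col4a3 and Col4a4, chains of the glomerular filtration barrier that are mutated in human Alport syndrome, had their highest mean level over the 4 libraries in podocyte-like cluster 15. In Klf4deltaEC, Col4a3 was higher in unnamed cluster 18, at 42.8 against 30.2 in cluster 15. Col4a3 in cluster 15 was at 30.2 (28.3 to 32.2) in Klf4deltaEC, 27.1 (25.4 to 29) in Nos3-/-, 31.9 (30.2 to 33.7) in Klf4deltaECNos3-/- and 29.3 (27.6 to 31.1) in the control. Col4a4 was at 19.8 (18.3 to 21.4) in Klf4deltaEC, 16.2 (14.8 to 17.6) in Nos3-/-, 19.2 (17.9 to 20.6) in Klf4deltaECNos3-/- and 19.4 (18 to 20.8) in the control. Col4a5, the chain that completes the same network, was at 5.9 (5.09 to 6.8) in Klf4deltaEC, 4.37 (3.69 to 5.15) in Nos3-/-, 5.93 (5.21 to 6.73) in Klf4deltaECNos3-/- and 5.8 (5.05 to 6.63) in the control. All 3 genes were lowest in the library labelled Nos3-/-. Their log2 ratios for Nos3-/- over control were -0.11 (-0.24 to 0.02), -0.26 (-0.42 to -0.09) and -0.40 (-0.72 to -0.10), none of which reaches a 2-fold difference. The 8 podocyte markers in that cluster summed to 963 in Klf4deltaEC, 858 in Nos3-/-, 1081 in Klf4deltaECNos3-/- and 938 in the control. Most of each sum is Magi2, at a mean of 802, while Ptpro, the next of the 8, was at 41.8. None of the 8 was higher in Nos3-/- than in the control, and their part was not tested. In Klf4deltaEC and in Klf4deltaECNos3-/-, the log2 ratios of these 3 genes over the control lay between -0.01 and 0.12. Col4a6 in podocyte-like nuclei was at 0.475 in Klf4deltaEC, 0.82 in Nos3-/-, 0.603 in Klf4deltaECNos3-/- and 0.822 in the control.

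The same 3 chains were also found outside podocyte-like nuclei. Over the 19 other clusters from 0 to 19, the median level of Col4a3 was 31.4% of its podocyte-like level (13.8% to 66.1%). That of Col4a4 was 42.5% (13.8% to 80.3%) and that of Col4a5 was 42.7% (16.7% to 104%). The medians of podocyte genes measured the same way were lower, though some of these genes reached higher shares in single clusters. The medians were 0.14% for Nphs1 (nephrin, of the slit diaphragm), 0.194% for Ptpro and 0.137% for Synpo, and 1.63% for Magi2 was the highest median of the 8 podocyte markers. Their highest shares in any of the 19 clusters were 17.1% for Podxl, 10.9% for Synpo, 8.62% for Nebl and 7.64% for Wt1. The highest share of Podxl thus lay above the lowest shares of Col4a3 and Col4a4, while that of Nphs1 was 0.849%. In the 4 proximal tubule-like clusters, Nphs1 was at 0.055% to 0.139% of its podocyte-like level and Col4a3 at 27.8% to 47.8%.

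The balance between Col4a4 and Col4a3 differed between clusters in every library. In podocyte-like nuclei the ratio of the Col4a4 level to the Col4a3 level was 0.656 in Klf4deltaEC, 0.596 in Nos3-/-, 0.601 in Klf4deltaECNos3-/- and 0.66 in the control. Of clusters 0 to 19, unnamed cluster 1 had the lowest ratios. They were 0.323 in Klf4deltaEC, 0.332 in Nos3-/-, 0.367 in Klf4deltaECNos3-/- and 0.405 in the control. Unnamed cluster 17, whose leading genes include Trpv5 and Scnn1g of the distal nephron, had 2.63 in Klf4deltaEC, 1.47 in Nos3-/-, 1.84 in Klf4deltaECNos3-/- and 1.76 in the control. Among clusters 0 to 19, 4 others were also above 1 in all 4 libraries. They were principal cell-like cluster 8 at 1.04 to 1.35, distal convoluted tubule-like cluster 9 at 1.14 to 1.4, connecting tubule-like cluster 11 at 1.29 to 1.68 and intercalated cell-like cluster 16 at 1.57 to 2.16. Cluster 16 was above cluster 17 in Nos3-/-, at 1.76 against 1.47, and in Klf4deltaECNos3-/-, at 2.16 against 1.84. Both were at 1.76 in the control. Cluster 14 lay on both sides of 1, at 0.724 to 1.62. The ratio is read only between clusters, since gene length and priming differ between the genes.

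**Figure D2:**
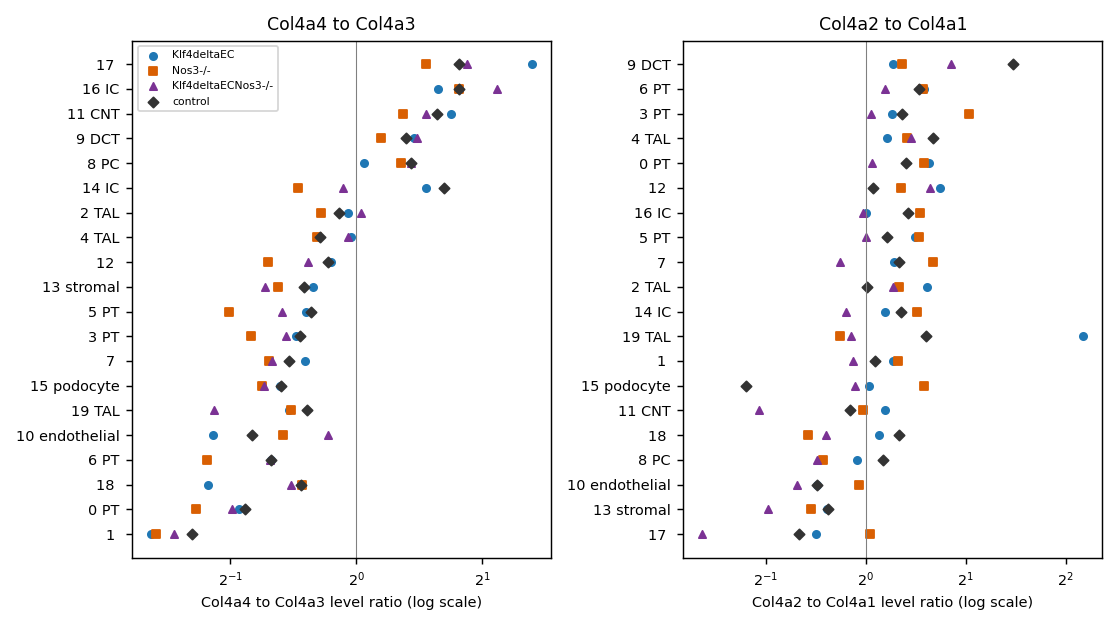
Ratio of the Col4a4 level to the Col4a3 level (left) and of the Col4a2 level to the Col4a1 level (right) in clusters 0 to 19, 1 point per library, on log axes, with clusters ordered by their ratio. By the ratio of mean levels, Col4a4 to Col4a3 is lowest in cluster 1, at 0.323 to 0.405 in single libraries. It is highest in cluster 17, at 1.47 to 2.63, though cluster 16, at 1.57 to 2.16, lies above it in Nos3-/- and Klf4deltaECNos3-/-. Podocyte-like nuclei lie at 0.596 to 0.66.

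In proximal tubule-like clusters 0 and 6 both genes were high in Klf4deltaECNos3-/- and in the control and low in the other pair. Col4a4 in cluster 0 was at 5.23 (5.01 to 5.45) in Klf4deltaEC, 4.65 (4.38 to 4.93) in Nos3-/-, 9.65 (9.35 to 9.96) in Klf4deltaECNos3-/- and 8.85 (8.6 to 9.12) in the control. In cluster 6 it was at 5.28 (4.98 to 5.59) in Klf4deltaEC, 4.27 (3.88 to 4.69) in Nos3-/-, 10.1 (9.58 to 10.6) in Klf4deltaECNos3-/- and 8.75 (8.34 to 9.17) in the control. Col4a3 in cluster 0 was at 9.95 (9.65 to 10.3) in Klf4deltaEC, 11.2 (10.8 to 11.6) in Nos3-/-, 19.2 (18.8 to 19.6) in Klf4deltaECNos3-/- and 16.4 (16 to 16.7) in the control. The counting intervals of the high pair and the low pair do not overlap here, and counting error was the only error measured. The log2 ratio of Col4a4 for Klf4deltaECNos3-/- over Nos3-/- was 1.04 (0.96 to 1.15) in cluster 0, 1.15 (1.03 to 1.31) in cluster 5 and 1.22 (1.08 to 1.40) in cluster 6. For Nos3-/- over control it was -1.02 (-1.19 to -0.88) in cluster 6.

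The type IV genes differed widely between libraries in unnamed cluster 18, whose parietal epithelium and thin limb marker scores were close, at 2.49 and 2.37. Col4a3 there was at 42.8 (40.3 to 45.4) in Klf4deltaEC, 6.55 (5.29 to 8.02) in Nos3-/-, 10.9 (9.81 to 12.2) in Klf4deltaECNos3-/- and 18.1 (16.8 to 19.5) in the control. Col4a4 was at 18.9 (17.3 to 20.7) in Klf4deltaEC, 4.86 (3.78 to 6.15) in Nos3-/-, 7.63 (6.69 to 8.66) in Klf4deltaECNos3-/- and 13.4 (12.3 to 14.6) in the control. Col4a6, the chain of Bowman's capsule, was at 3.35 (2.68 to 4.14) in Klf4deltaEC, 0.783 (0.393 to 1.4) in Nos3-/-, 1.19 (0.841 to 1.64) in Klf4deltaECNos3-/- and 1.39 (1.04 to 1.83) in the control. Klf4deltaEC was the highest and Nos3-/- the lowest for all 3, and the same held for Col4a5, at 8.42 in Klf4deltaEC, 3.45 in Nos3-/-, 5.27 in Klf4deltaECNos3-/- and 5.76 in the control. Col4a1 ran otherwise and was highest in Nos3-/-, at 2.6 (2.01 to 3.31) in Klf4deltaEC, 6.42 (5.17 to 7.88) in Nos3-/-, 3.09 (2.5 to 3.77) in Klf4deltaECNos3-/- and 2.22 (1.76 to 2.75) in the control.

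Several of these differences in cluster 18 passed 2-fold. For Klf4deltaEC over control the log2 ratios were 1.24 (1.10 to 1.38) for Col4a3 and 1.21 (0.75 to 1.79) for Col4a6. For Nos3-/- over control they were -1.46 (-1.80 to -1.15) for Col4a3, -1.45 (-1.85 to -1.10) for Col4a4 and 1.49 (1.09 to 1.98) for Col4a1. The markers of the cluster moved as well. The 6 parietal markers summed to 30.0 in Klf4deltaEC, 24.6 in Nos3-/-, 20.4 in Klf4deltaECNos3-/- and 20.6 in the control, with 6 of 6 higher in Klf4deltaEC than in the control. The 6 thin limb markers summed to 26.9 in Klf4deltaEC, 4.79 in Nos3-/-, 32.3 in Klf4deltaECNos3-/- and 17.6 in the control. The 9 proximal tubule markers summed to 33.5 in Klf4deltaEC, 54.8 in Nos3-/-, 21.3 in Klf4deltaECNos3-/- and 21.3 in the control. The cluster held 119 nuclei in Klf4deltaEC, 83 in Nos3-/-, 103 in Klf4deltaECNos3-/- and 140 in the control, and none of these markers was at 0 in all libraries. The part of a changed mix of nuclei in the collagen differences was not tested.

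**Figure D3:**
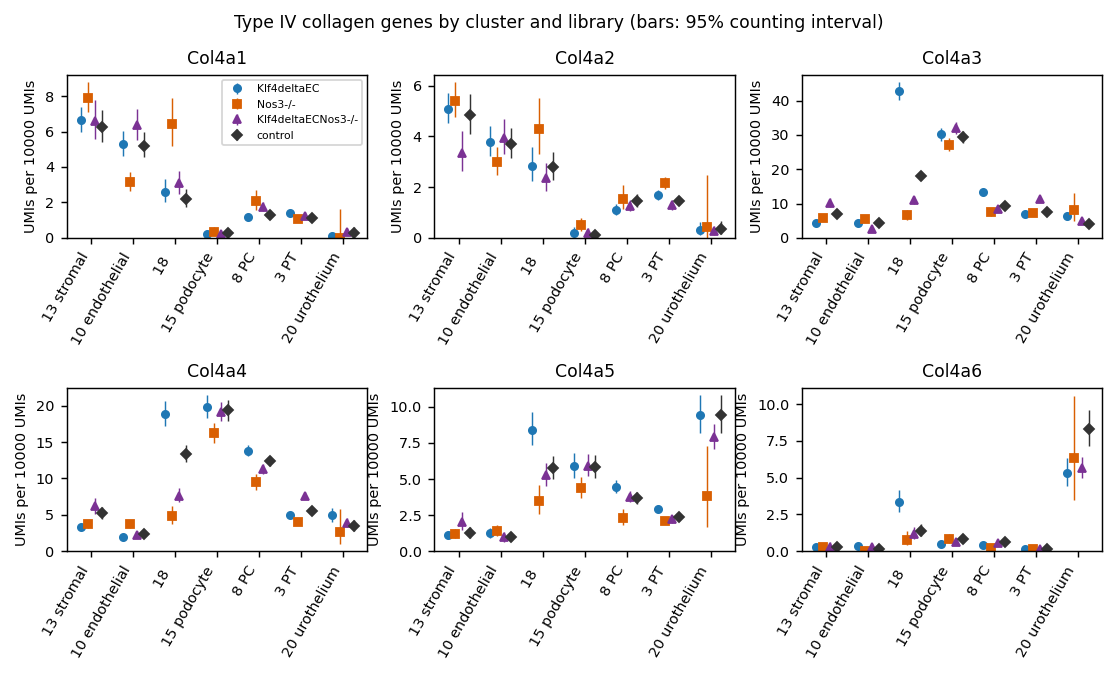
Levels of the 6 type IV genes per 10000 UMIs in 7 clusters, 1 marker per library with its 95% counting interval (vertical bar), in the order Klf4deltaEC, Nos3-/-, Klf4deltaECNos3-/- and control. Podocyte-like nuclei hold Col4a3 at 27.1 to 31.9 in all libraries, while unnamed cluster 18 runs from 6.55 to 42.8.

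In endothelial-like and stromal-like nuclei, Col4a3 to Col4a6 were low beside their leading clusters. Col4a3 in cluster 10 was at 4.23 (3.62 to 4.9) in Klf4deltaEC, 5.52 (4.82 to 6.29) in Nos3-/-, 2.65 (2.13 to 3.26) in Klf4deltaECNos3-/- and 4.21 (3.61 to 4.88) in the control. Its log2 ratio there was -1.03 (-1.43 to -0.70) for Klf4deltaECNos3-/- over Nos3-/-. The 9 proximal tubule markers went the same way, at 16.5 in Klf4deltaECNos3-/- against 51.1 in Nos3-/-, with 0 of 9 higher, and their part was not tested. In cluster 13, Col4a3 was at 4.24 (3.71 to 4.82) in Klf4deltaEC, 5.69 (5.02 to 6.43) in Nos3-/-, 10.2 (8.9 to 11.7) in Klf4deltaECNos3-/- and 6.95 (6.05 to 7.94) in the control. Its log2 ratio for Klf4deltaECNos3-/- over Klf4deltaEC was 1.25 (1.00 to 1.54). The proximal tubule markers of cluster 13 summed to 63 in Klf4deltaEC, 70.7 in Nos3-/-, 80.2 in Klf4deltaECNos3-/- and 69.2 in the control, with 7 of 9 higher in Klf4deltaECNos3-/- than in Klf4deltaEC, and their part was not tested.

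Col4a4 and Col4a5 showed no 2-fold difference in either cluster. Col4a4 in cluster 10 was at 1.92 in Klf4deltaEC, 3.7 in Nos3-/-, 2.27 in Klf4deltaECNos3-/- and 2.37 in the control. In cluster 13 it was at 3.34 in Klf4deltaEC, 3.7 in Nos3-/-, 6.17 in Klf4deltaECNos3-/- and 5.22 in the control. Col4a5 in cluster 10 was at 1.24 in Klf4deltaEC, 1.39 in Nos3-/-, 0.957 in Klf4deltaECNos3-/- and 0.967 in the control. It was highest in Klf4deltaECNos3-/- in cluster 13, at 1.11 in Klf4deltaEC, 1.21 in Nos3-/-, 2.02 in Klf4deltaECNos3-/- and 1.25 in the control. Col4a6 was at or below 0.335 in both clusters in every library, under the level needed to enter a comparison.

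Col4a5 and Col4a6 had their highest means in the urothelium-like cluster 20, cells of the lining of the urinary tract. It held 69 nuclei in Klf4deltaEC, 12 in Nos3-/-, 88 in Klf4deltaECNos3-/- and 59 in the control. Col4a5 there was at 9.45 (8.22 to 10.8) in Klf4deltaEC, 3.8 (1.71 to 7.32) in Nos3-/-, 7.9 (7.07 to 8.8) in Klf4deltaECNos3-/- and 9.42 (8.16 to 10.8) in the control. Col4a6 was at 5.32 (4.41 to 6.37) in Klf4deltaEC, 6.35 (3.5 to 10.6) in Nos3-/-, 5.64 (4.95 to 6.41) in Klf4deltaECNos3-/- and 8.31 (7.14 to 9.62) in the control. The intervals for the 12 nuclei of Nos3-/- are wide. Col4a3 in the same cluster was at 6.24 in Klf4deltaEC, 8.26 in Nos3-/-, 4.92 in Klf4deltaECNos3-/- and 3.95 in the control, below its podocyte-like level in every library.

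Most of the interstitial chains were led by stromal-like cluster 13, which held 201 nuclei in Klf4deltaEC, 234 in Nos3-/-, 84 in Klf4deltaECNos3-/- and 160 in the control. Col1a2 (chromosome 6, 4504814 to 4541544, plus strand), a chain of type I collagen, was at 1.29 (1.01 to 1.63) in Klf4deltaEC, 0.864 (0.616 to 1.18) in Nos3-/-, 0.962 (0.591 to 1.48) in Klf4deltaECNos3-/- and 1.39 (1.01 to 1.87) in the control. Col3a1 (chromosome 1, 45311538 to 45349706, plus strand), the type III chain that joins type I in fibrils, was at 0.777 in Klf4deltaEC, 0.553 in Nos3-/-, 0.911 in Klf4deltaECNos3-/- and 0.537 in the control. Col5a1 (chromosome 2, 27886425 to 28039514, plus strand), a type V chain that limits fibril diameter, was at 0.796 in Klf4deltaEC, 1.01 in Nos3-/-, 0.698 in Klf4deltaECNos3-/- and 0.595 in the control. The counting intervals of the 4 libraries overlapped for each of these 3 genes. Col1a2 had a lower second site in podocyte-like nuclei, at 0.255 (0.111 to 0.498) in Klf4deltaEC, 0.303 (0.146 to 0.557) in Nos3-/-, 0.513 (0.317 to 0.784) in Klf4deltaECNos3-/- and 0.621 (0.394 to 0.932) in the control.

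Col15a1 (chromosome 4, 47208161 to 47313167, plus strand), a multiplexin of vessel and muscle basement membranes, was shared by cluster 13 and endothelial-like cluster 10. In cluster 13 it was at 0.879 in Klf4deltaEC, 1.03 in Nos3-/-, 0.627 in Klf4deltaECNos3-/- and 0.905 in the control. In cluster 10 it was at 0.712 in Klf4deltaEC, 0.557 in Nos3-/-, 0.509 in Klf4deltaECNos3-/- and 0.561 in the control. Cluster 13 was higher in each library.

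Among the interstitial and small chains that reached 1 per 10000 in cluster 13, differences of 2-fold or more were seen for Col14a1, Col6a3 and Col8a1. Col14a1 (chromosome 15, 55307750 to 55520803, plus strand), a fibril-associated collagen, was at 2.49 (2.09 to 2.94) in Klf4deltaEC, 1.58 (1.24 to 1.99) in Nos3-/-, 0.541 (0.274 to 0.956) in Klf4deltaECNos3-/- and 1.97 (1.51 to 2.53) in the control. Klf4deltaECNos3-/- was the lowest, and its interval lay below the other 3. The log2 ratio of Klf4deltaECNos3-/- was -1.69 (-2.92 to -0.94) over control, -1.39 (-2.59 to -0.64) over Nos3-/- and -2.01 (-3.21 to -1.33) over Klf4deltaEC. Col6a3 (chromosome 1, 90765923 to 90843971, minus strand), a chain of the type VI beaded filaments, was at 1.94 (1.59 to 2.34) in Klf4deltaEC, 1.38 (1.06 to 1.76) in Nos3-/-, 0.791 (0.459 to 1.27) in Klf4deltaECNos3-/- and 1.05 (0.722 to 1.48) in the control. Its log2 ratio was -1.19 (-2.13 to -0.54) for Klf4deltaECNos3-/- over Klf4deltaEC. These values rest on about 11.5 UMIs of Col14a1 and 16.8 of Col6a3 in Klf4deltaECNos3-/-.

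Col8a1, a short-chain collagen, was at 0.46 (0.298 to 0.678) in Klf4deltaEC, 1.07 (0.79 to 1.42) in Nos3-/-, 0.555 (0.284 to 0.975) in Klf4deltaECNos3-/- and 1.22 (0.862 to 1.67) in the control in cluster 13. It was lower than the control in Klf4deltaEC, with a log2 ratio of -1.24 (-2.19 to -0.64), and in Klf4deltaECNos3-/-, with -1.01 (-2.22 to -0.16). The markers of stromal cell types moved in the cluster as well. The 6 fibroblast markers summed to 2.4 in Klf4deltaEC, 1.47 in Nos3-/-, 1.63 in Klf4deltaECNos3-/- and 3.98 in the control, with 0 of 6 higher in Klf4deltaECNos3-/- than in the control. The 7 smooth muscle and pericyte markers summed to 6.15 in Klf4deltaEC, 7.13 in Nos3-/-, 9.47 in Klf4deltaECNos3-/- and 5.05 in the control. The 6 mesangial markers summed to 5.26 in Klf4deltaEC, 4.75 in Nos3-/-, 5.64 in Klf4deltaECNos3-/- and 5.2 in the control. None of the 3 lists had a marker at 0 in all libraries, and their part in the collagen differences was not tested.

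A second set of chains was led by tubule clusters. Col8a1 (chromosome 16, 57624258 to 57754737, minus strand), known from vessel walls and the cornea, led in proximal tubule-like cluster 3, whose leading genes include Slc5a2, the glucose transporter of the early segment. In Nos3-/- alone, stromal-like cluster 13 was higher, at 1.07. In cluster 3 Col8a1 was at 1.6 (1.42 to 1.81) in Klf4deltaEC, 0.595 (0.474 to 0.737) in Nos3-/-, 6.13 (5.7 to 6.58) in Klf4deltaECNos3-/- and 2.86 (2.61 to 3.13) in the control. None of these intervals overlap, and the order from high to low was Klf4deltaECNos3-/-, control, Klf4deltaEC and Nos3-/-. The log2 ratio was -2.09 (-2.62 to -1.93) for Nos3-/- over control and 1.07 (0.93 to 1.27) for Klf4deltaECNos3-/- over control. It was 3.16 (3.04 to 3.71) for Klf4deltaECNos3-/- over Nos3-/- and 1.87 (1.73 to 2.14) for Klf4deltaECNos3-/- over Klf4deltaEC. The interval is that of the ratio without the added 0.1, so for low genes it can lie off centre or even leave out the printed ratio. The 9 proximal tubule markers in cluster 3 summed to 199 in Klf4deltaEC, 172 in Nos3-/-, 199 in Klf4deltaECNos3-/- and 209 in the control. In unnamed cluster 12, with 7.6 to 18 Col8a1 UMIs per library, the gene was at 0.976 (0.528 to 1.65) in Klf4deltaEC, 0.302 (0.127 to 0.605) in Nos3-/-, 2.02 (1.2 to 3.19) in Klf4deltaECNos3-/- and 0.869 (0.403 to 1.63) in the control. There too Klf4deltaECNos3-/- was the highest, with log2 ratios of 2.40 (1.45 to 4.18) over Nos3-/- and 1.13 (0.00 to 2.53) over control.

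Col27a1 (chromosome 4, 63214004 to 63334991, plus strand), a fibrillar collagen known from cartilage, led in the same cluster 3 by its mean and varied little there. In Klf4deltaEC, low-depth cluster 12 was higher. In cluster 3 Col27a1 was at 6.67 (6.28 to 7.07) in Klf4deltaEC, 6.35 (5.94 to 6.78) in Nos3-/-, 6.29 (5.85 to 6.75) in Klf4deltaECNos3-/- and 6.86 (6.47 to 7.27) in the control. Elsewhere Nos3-/- was higher in several clusters. In principal cell-like cluster 8, Col27a1 was at 0.684 (0.523 to 0.878) in Klf4deltaEC, 3.3 (2.67 to 4.03) in Nos3-/-, 0.843 (0.669 to 1.05) in Klf4deltaECNos3-/- and 0.631 (0.479 to 0.816) in the control. The log2 ratio there was 2.22 (1.90 to 2.88) for Nos3-/- over control and -1.85 (-2.41 to -1.52) for Klf4deltaECNos3-/- over Nos3-/-. The 9 proximal tubule markers in cluster 8 summed to 11.7 in Klf4deltaEC, 38.9 in Nos3-/-, 8.59 in Klf4deltaECNos3-/- and 11.4 in the control, with 9 of 9 higher in Nos3-/- than in the control. Their part in the Col27a1 difference was not tested. Nos3-/- over control was also at 1.35 (0.79 to 2.33) in cluster 14 and 1.69 (0.79 to 3.29) in cluster 18. Klf4deltaECNos3-/- over Nos3-/- was at -1.07 (-1.28 to -0.94) in cluster 7 and -1.51 (-3.06 to -0.55) in cluster 18. In low-depth cluster 12, Klf4deltaEC was the highest, at 7.08 (5.75 to 8.63) in Klf4deltaEC, 1.92 (1.42 to 2.54) in Nos3-/-, 2.77 (1.79 to 4.1) in Klf4deltaECNos3-/- and 4.49 (3.31 to 5.95) in the control.

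Unnamed cluster 1 led for Col6a6 and Col23a1. Col6a6 (chromosome 9, 105687809 to 105828160, minus strand), a chain of the type VI family, was at 0.809 (0.724 to 0.90) in Klf4deltaEC, 0.345 (0.271 to 0.434) in Nos3-/-, 0.304 (0.253 to 0.361) in Klf4deltaECNos3-/- and 1.18 (1.08 to 1.27) in the control. It was low in both libraries with the Nos3-/- label. The log2 ratio was -1.52 (-2.14 to -1.41) for Nos3-/- over control and -1.66 (-2.24 to -1.68) for Klf4deltaECNos3-/- over control. It was -1.17 (-1.72 to -1.12) for Klf4deltaECNos3-/- over Klf4deltaEC. The ratio of -1.66 includes the added 0.1 and its interval does not, so the ratio lies just outside that interval. Its second site, cluster 0, gave 0.0784 in Klf4deltaEC, 0.245 in Nos3-/-, 0.237 in Klf4deltaECNos3-/- and 0.438 in the control, the control again the highest. The lowest there was Klf4deltaEC, which lacks the Nos3-/- label, so the order of cluster 1 did not hold. Col23a1 (chromosome 11, 51289920 to 51583918, plus strand), a transmembrane collagen, was highest in Nos3-/-, at 1.01 (0.911 to 1.11) in Klf4deltaEC, 1.74 (1.56 to 1.93) in Nos3-/-, 1.01 (0.912 to 1.11) in Klf4deltaECNos3-/- and 0.884 (0.804 to 0.97) in the control. Col19a1 (chromosome 1, 24261890 to 24587472, minus strand), a fibril-associated collagen of basement membrane zones, led in proximal tubule-like cluster 0. It was highest in Klf4deltaECNos3-/- there, at 0.556 (0.487 to 0.631) in Klf4deltaEC, 0.448 (0.367 to 0.543) in Nos3-/-, 0.909 (0.818 to 1.01) in Klf4deltaECNos3-/- and 0.674 (0.604 to 0.75) in the control.

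**Figure D4:**
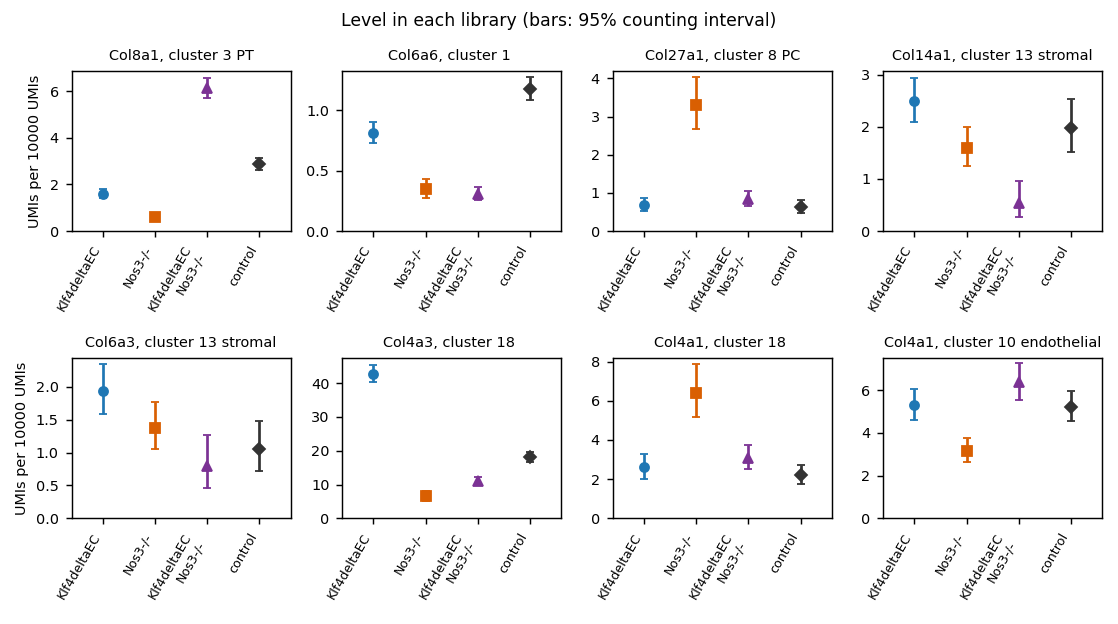
Level per 10000 UMIs in 8 pairs of a collagen gene and a cluster, 1 marker per library with its 95% counting interval, in the order Klf4deltaEC, Nos3-/-, Klf4deltaECNos3-/- and control. Col8a1 in cluster 3 lies at 6.13 in Klf4deltaECNos3-/- and at 0.595 in Nos3-/-, and Col6a6 in cluster 1 is low in both libraries with the Nos3-/- label.

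Loop and distal clusters led for the other 4 tubule chains. Col5a2 (chromosome 1, 45374321 to 45503282, minus strand), the partner of Col5a1 in type V collagen, led not in stromal-like nuclei but in thick ascending limb-like cluster 19. The leading genes of that cluster include Nos1, an enzyme of the macula densa. Col5a2 there was at 11.5 (9.94 to 13.2) in Klf4deltaEC, 5.29 (4.1 to 6.72) in Nos3-/-, 7.75 (6.59 to 9.06) in Klf4deltaECNos3-/- and 10.4 (9.03 to 12) in the control. The next cluster, distal convoluted tubule-like 9, was at 1.79 in Klf4deltaEC, 0.993 in Nos3-/-, 0.919 in Klf4deltaECNos3-/- and 1.37 in the control, so cluster 19 led in each library. Both libraries with the Nos3-/- label were lower than the control in cluster 19, by less than 2-fold. Col26a1 (chromosome 5, 136741759 to 136883209, minus strand) led in principal cell-like cluster 8, the water-reabsorbing cells of the collecting duct, at 6.15 (5.65 to 6.69) in Klf4deltaEC, 10.1 (9.01 to 11.4) in Nos3-/-, 7.6 (7.05 to 8.17) in Klf4deltaECNos3-/- and 7.22 (6.68 to 7.79) in the control. It was also found in unnamed cluster 17, at 5.71 in Klf4deltaEC, 3.13 in Nos3-/-, 5.0 in Klf4deltaECNos3-/- and 5.48 in the control. Its levels in connecting tubule-like cluster 11, at 0.00989 to 0.122, rest on 0.6 to 6.2 UMIs per library.

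The intercalated cell-like clusters, the acid and base handling cells of the collecting system, led for Col18a1 and Col24a1. Among their leading genes, cluster 14 has Slc26a4 and cluster 16 has Kit and Slc4a1. Col18a1 (chromosome 10, 77052178 to 77166548, minus strand), the multiplexin whose end is cut off as endostatin, was at 5.17 (4.46 to 5.95) in Klf4deltaEC, 4.93 (3.86 to 6.2) in Nos3-/-, 3.91 (3.35 to 4.53) in Klf4deltaECNos3-/- and 3.79 (3.19 to 4.46) in the control in cluster 16. In cluster 14 it was at 3.69 (3.27 to 4.13) in Klf4deltaEC, 4.06 (3.39 to 4.82) in Nos3-/-, 3.55 (3.15 to 3.98) in Klf4deltaECNos3-/- and 4.0 (3.52 to 4.53) in the control. The intervals of the 2 clusters overlap in Nos3-/-, Klf4deltaECNos3-/- and the control. Col24a1 (chromosome 3, 145292472 to 145552011, plus strand), a fibrillar collagen known from bone, separated these clusters. It was at 1.23 (0.995 to 1.5) in Klf4deltaEC, 0.761 (0.49 to 1.13) in Nos3-/-, 1.16 (0.939 to 1.42) in Klf4deltaECNos3-/- and 1.38 (1.1 to 1.7) in the control in cluster 14. In cluster 16 it was at 0.0407 in Klf4deltaEC, 0.10 in Nos3-/-, 0.237 in Klf4deltaECNos3-/- and 0.0325 in the control.

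The other 20 genes stayed below 0.5 per 10000 in every cluster mean, with leading levels of 0.0156 (Col6a5) to 0.325 (Col16a1). They were detected in 7 to 86 of the 92 columns. Stromal-like cluster 13 led for Col1a1, Col6a1, Col6a2 and Col12a1, cluster 10 for Col13a1 and Col28a1, and cluster 8 for Col11a1. The rest were Col5a3, Col6a4, Col6a5, Col7a1, Col8a2, Col9a3, Col10a1, Col11a2, Col16a1, Col17a1, Col20a1, Col22a1 and Col25a1. Col1a1, the main chain of type I collagen, was at 0.0504 (0.00946 to 0.153) in Klf4deltaEC, 0.321 (0.178 to 0.534) in Nos3-/-, 0.177 (0.0456 to 0.466) in Klf4deltaECNos3-/- and 0.45 (0.246 to 0.756) in the control in cluster 13. Col13a1, a transmembrane collagen, was at 0.312 in Klf4deltaEC, 0.207 in Nos3-/-, 0.242 in Klf4deltaECNos3-/- and 0.422 in the control in endothelial-like nuclei, with overlapping intervals. These levels rest on 2.8 to 17.6 UMIs per library.

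For the comparisons between libraries, a gene in a cluster entered where the higher library reached 0.5 per 10000. It was counted where the log2 ratio of (value + 0.1) was at least 1 or at most -1, over clusters 0 to 19. The first comparison sets the library labelled Klf4deltaEC against the control. Of 149 collagen pairs of gene and cluster, 3 (2.01%) were higher and 5 (3.36%) lower in Klf4deltaEC than in the control. The background over all genes was 2.2% higher and 1.95% lower. The pairs in which a library reached 1 per 10000 were Col4a3 and Col4a6 in cluster 18, Col8a1 in cluster 13 and Col4a1 in low-depth cluster 12. Col4a1 in cluster 12 was at 0.771 in Klf4deltaEC against 1.88 in the control (log2 ratio -1.18, -2.50 to -0.15). In endothelial-like nuclei, the cells that the label names, the log2 ratio was 0.03 (-0.25 to 0.30) for Col4a1, 0.03 (-0.30 to 0.36) for Col4a2 and 0.00 (-0.31 to 0.32) for Col4a3. Below 1 per 10000, Col4a6 in cluster 12 was higher, and Col11a1 in cluster 8, Col1a2 in podocyte-like nuclei and Col8a1 in endothelial-like nuclei were lower. The median log2 ratio was 0.01 over the collagen pairs and -0.02 over all pairs.

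For Nos3-/- over control, 7 of 154 collagen pairs were higher (4.55%) and 12 lower (7.79%), beside a background of 6.02% higher and 4.81% lower. The median was -0.06 over collagens and 0.06 over all pairs. Beyond the genes above, Col4a1 in cluster 12 was at 0.695 in Nos3-/- against 1.88 in the control (log2 ratio -1.32, -2.45 to -0.44). Col4a2 in cluster 12 was at 0.885 in Nos3-/- against 1.97 in the control (log2 ratio -1.07, -2.08 to -0.23), and Col27a1 in cluster 12 had a log2 ratio of -1.18 (-1.83 to -0.62). Col4a2 in intercalated cell-like cluster 16 was higher, at 1.38 in Nos3-/- against 0.617 in the control (log2 ratio 1.05, 0.23 to 2.09). Below 1 per 10000, Col4a1 and Col4a2 in cluster 19 were higher, and Col4a6 and Col11a1 in cluster 8 and Col8a1 in clusters 10 and 12 were lower.

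For Klf4deltaECNos3-/- over control, 2 of 146 collagen pairs were higher (1.37%) and 7 lower (4.79%), beside a background of 2.97% higher and 2.01% lower. The median was -0.06 over collagens and 0.07 over all pairs. The higher pairs were Col8a1 in clusters 3 and 12. The lower pairs in which a library reached 1 per 10000 were Col6a6 in cluster 1, Col14a1 and Col8a1 in cluster 13, and Col4a1 and Col4a2 in cluster 12. The last pair had log2 ratios of -1.60 (-3.55 to -0.30) for Col4a1 and -1.11 (-2.61 to 0.05) for Col4a2. Below 1 per 10000, Col11a1 in cluster 8 and Col5a2 in cluster 13 were lower too. In endothelial-like nuclei the log2 ratio was 0.28 (0.01 to 0.57) for Col4a1, 0.09 (-0.26 to 0.43) for Col4a2 and -0.65 (-1.05 to -0.29) for Col4a3.

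The Klf4deltaEC label within the libraries labelled Nos3-/- was read as Klf4deltaECNos3-/- over Nos3-/-. Here 8 of 153 collagen pairs were higher (5.23%) and 14 lower (9.15%), beside a background of 6.69% higher and 6.29% lower. The median was -0.03 over collagens and 0.03 over all pairs. Besides Col4a4, Col8a1, Col27a1, Col14a1 and Col4a3 above, Col4a1 in cluster 18 was lower, with a log2 ratio of -1.03 (-1.48 to -0.63). Col4a2 was at 0.307 in Klf4deltaECNos3-/- against 1.38 in Nos3-/- in cluster 16, a log2 ratio of -1.87 (-3.27 to -1.12). In cluster 17 it was at 0.502 in Klf4deltaECNos3-/- against 1.64 in Nos3-/-, a log2 ratio of -1.53 (-2.84 to -0.71). Col18a1 in cluster 19 was at 0.43 in Klf4deltaECNos3-/- against 1.04 in Nos3-/-, a log2 ratio of -1.11 (-2.70 to 0.06). Below 1 per 10000, Col4a6 in cluster 8, Col5a2 in cluster 10 and Col8a1 in cluster 5 were higher. Lower were Col27a1 in clusters 10 and 15, Col4a1 in cluster 16, Col4a2 in cluster 2 and Col5a2 in cluster 13.

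For Klf4deltaECNos3-/- over Klf4deltaEC, 3 of 148 pairs were higher (2.03%) and 9 lower (6.08%), beside a background of 3.03% higher and 2.37% lower. The median was -0.05 over collagens and 0.10 over all pairs. In cluster 18 the log2 ratio was -1.96 (-2.15 to -1.79) for Col4a3, -1.30 (-1.54 to -1.08) for Col4a4 and -1.42 (-2.09 to -0.92) for Col4a6. Col27a1 in cluster 12 had a log2 ratio of -1.32 (-2.05 to -0.71). Below 1 per 10000, Col8a1 in cluster 5 was higher, and Col4a6 in cluster 12 and Col5a2 in cluster 13 were lower. With a pseudocount of 0.5 in place of 0.1, the collagen pairs past the limit were 2 higher and 0 lower for Klf4deltaEC over control. They were 4 higher and 4 lower both for Nos3-/- over control and for Klf4deltaECNos3-/- over Nos3-/-. Lower pairs stayed more numerous for Klf4deltaECNos3-/- over control (0 higher and 3 lower) and over Klf4deltaEC (2 higher and 6 lower). The balance of higher and lower pairs thus depended on the pseudocount in some comparisons. No background over all genes is given at 0.5. The 5 comparisons share libraries, so their counts are not independent of each other, and none was tested against its background.

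**Figure D5:**
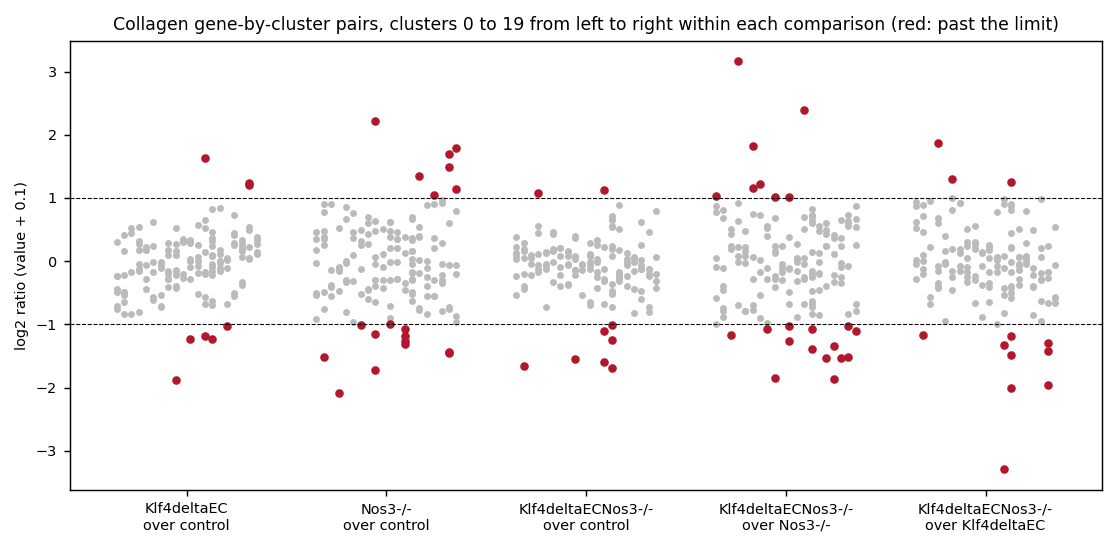
Log2 ratio of (value + 0.1) for every collagen gene and cluster pair that entered, in 5 comparisons named with the numerator first; within a comparison clusters 0 to 19 run from left to right. Red points lie at or past a log2 ratio of 1 or -1 (dashed lines), 3 higher and 5 lower for Klf4deltaEC over control and 7 higher and 12 lower for Nos3-/- over control.

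Genes that make, bind or remodel collagen were read from 4 lists. Of the 36 collagen-processing enzymes, 19 reached 0.5 per 10000, with 4 led by cluster 13, 4 by cluster 10 and 3 by cluster 15. P3h2, a prolyl 3-hydroxylase that acts on type IV collagen, led in thick ascending limb-like cluster 2, at 23.9 in Klf4deltaEC, 19.8 in Nos3-/-, 18.9 in Klf4deltaECNos3-/- and 26.3 in the control. Tll1, a protease related to procollagen C-proteinase, led in endothelial-like cluster 10, at 6.13 in Klf4deltaEC, 3.9 in Nos3-/-, 6.21 in Klf4deltaECNos3-/- and 8.46 in the control. Plod2, a lysyl hydroxylase, led in podocyte-like cluster 15, at 4.3 in Klf4deltaEC, 3.14 in Nos3-/-, 5.47 in Klf4deltaECNos3-/- and 4.04 in the control. Tll1 in cluster 10 passed the limit for Nos3-/- over control, at -1.10 (-1.40 to -0.84). The endothelial markers there summed to 64.2 in Nos3-/- against 110.0 in the control, and the proximal tubule markers to 51.1 in Nos3-/- against 24.6 in the control. Their part was not tested. Loxl2, a crosslinking lysyl oxidase, was lower in podocyte-like nuclei of Klf4deltaEC than of the control, at 0.838 in Klf4deltaEC against 2.56 in the control (log2 ratio -1.50, -2.29 to -0.98). It was at 1.51 (0.99 to 2.28) for Klf4deltaECNos3-/- over Klf4deltaEC. P3h2 in cluster 10 was at 1.98 in Klf4deltaECNos3-/- against 6.89 in Nos3-/-, a log2 ratio of -1.75 (-2.21 to -1.41). In the same comparison the proximal tubule markers were at 16.5 in Klf4deltaECNos3-/- against 51.1 in Nos3-/-, and the endothelial markers at 103 in Klf4deltaECNos3-/- against 64.2 in Nos3-/-. Their part was not tested here, nor for Fras1, Itgb1 and Nid1 below.

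In cluster 13, Adamts2, a procollagen N-proteinase, and Sparc, a collagen-binding protein, were lower in Klf4deltaECNos3-/- than in the control, with log2 ratios of -1.36 (-2.82 to -0.47) and -1.20 (-2.34 to -0.42). The 6 fibroblast markers there summed to 1.63 in Klf4deltaECNos3-/- against 3.98 in the control, with 0 of 6 higher. The 7 smooth muscle and pericyte markers summed to 9.47 in Klf4deltaECNos3-/- against 5.05 in the control. The part of either list was not tested. For Klf4deltaECNos3-/- over Nos3-/-, Adamts2 and Loxl1, another lysyl oxidase, were at -1.17 (-2.59 to -0.30) and -1.15 (-2.44 to -0.33) in cluster 13, and Sparc was at 1.25 (0.58 to 2.31) in cluster 15. The podocyte markers there, whose sum is mostly Magi2, summed to 1081 in Klf4deltaECNos3-/- against 858 in Nos3-/-. With 8 of 8 higher, their part was not tested. The backgrounds for all 4 lists are those given for the same comparisons above. They are repeated in brackets as the percents higher and lower over all genes. Pairs past the limit were 6 higher and 8 lower of 140 for Klf4deltaEC over control (median log2 ratio -0.05, background 2.2% and 1.95%). Nos3-/- over control had 8 higher and 12 lower of 138 (median log2 ratio -0.10, background 6.02% and 4.81%). Klf4deltaECNos3-/- over control had 11 higher and 10 lower of 148 (median log2 ratio 0.09, background 2.97% and 2.01%). Klf4deltaECNos3-/- over Nos3-/- had 14 higher and 9 lower of 140 (median log2 ratio 0.11, background 6.69% and 6.29%). Klf4deltaECNos3-/- over Klf4deltaEC had 9 higher and 4 lower of 142 (median log2 ratio 0.12, background 3.03% and 2.37%).

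Of 10 measured collagen receptors, 8 reached 0.5 per 10000 and 4 were led by stromal-like cluster 13. Itga1, the alpha subunit of a collagen-binding integrin, was at 4.72 in Klf4deltaEC, 4.97 in Nos3-/-, 2.72 in Klf4deltaECNos3-/- and 3.83 in the control there. Its partner Itgb1 was at 3.77 in Klf4deltaEC, 2.26 in Nos3-/-, 2.9 in Klf4deltaECNos3-/- and 2.79 in the control. Ddr1, a collagen-activated receptor kinase, led in cluster 19 at 1.46 in Klf4deltaEC, 2.42 in Nos3-/-, 2.13 in Klf4deltaECNos3-/- and 1.46 in the control. Ddr1 was lower in podocyte-like nuclei of Klf4deltaEC than of the control, with a log2 ratio of -1.20 (-2.39 to -0.46). For Klf4deltaECNos3-/- over Nos3-/-, Itgb1 in endothelial-like nuclei was at 1.37 (0.92 to 2.01) and Mrc2, a collagen uptake receptor, in cluster 13 at -1.40 (-2.14 to -0.85). Receptor pairs past the limit were 0 higher and 2 lower of 60 for Klf4deltaEC over control (median log2 ratio 0.00, background 2.2% and 1.95%). Nos3-/- over control had 0 higher and 0 lower of 61 (median log2 ratio -0.08, background 6.02% and 4.81%). Klf4deltaECNos3-/- over control had 1 higher and 1 lower of 61 (median log2 ratio 0.02, background 2.97% and 2.01%). Klf4deltaECNos3-/- over Nos3-/- had 1 higher and 2 lower of 61 (median log2 ratio 0.03, background 6.69% and 6.29%). Klf4deltaECNos3-/- over Klf4deltaEC had 1 higher and 1 lower of 60 (median log2 ratio 0.04, background 3.03% and 2.37%).

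Among 20 basement membrane partners, 19 reached 0.5 per 10000. Fras1, of the complex that anchors epithelium, led in urothelium-like cluster 20 at 25.4 in Klf4deltaEC, 20.1 in Nos3-/-, 19.5 in Klf4deltaECNos3-/- and 18.2 in the control. Npnt (nephronectin) led in principal cell-like cluster 8 at 11.2 in Klf4deltaEC, 7.38 in Nos3-/-, 10.6 in Klf4deltaECNos3-/- and 13.4 in the control. Lama2, a laminin chain, led in stromal-like cluster 13 at 6.76 in Klf4deltaEC, 4.92 in Nos3-/-, 3.44 in Klf4deltaECNos3-/- and 8.12 in the control. Lama2 there had a log2 ratio of -1.21 (-1.63 to -0.86) for Klf4deltaECNos3-/- over control, and Frem1 one of 1.33 (0.85 to 2.01) for Klf4deltaEC over control. The fibroblast and smooth muscle marker sums given above for Adamts2 moved with the Lama2 difference too. For Klf4deltaEC over control the fibroblast markers were at 2.4 in Klf4deltaEC against 3.98 in the control. The part of these markers was not tested. In endothelial-like nuclei Fras1 was at 1.65 (1.14 to 2.53) for Nos3-/- over control and -1.77 (-2.78 to -1.19) for Klf4deltaECNos3-/- over Nos3-/-, beside the proximal tubule marker sums given above. Nid1 (nidogen) was at 1.12 (0.45 to 2.17) in cluster 10 for Klf4deltaECNos3-/- over Nos3-/-. For Klf4deltaECNos3-/- over Klf4deltaEC, Nid1 was at -1.01 (-2.10 to -0.26) in cluster 13 and Lama5, another laminin chain, at 1.09 (0.46 to 2.02) in cluster 10. Partner pairs past the limit were 1 higher and 10 lower of 149 for Klf4deltaEC over control (median log2 ratio -0.14, background 2.2% and 1.95%). Nos3-/- over control had 13 higher and 8 lower of 163 (median log2 ratio -0.10, background 6.02% and 4.81%). Klf4deltaECNos3-/- over control had 0 higher and 2 lower of 152 (median log2 ratio -0.08, background 2.97% and 2.01%). Klf4deltaECNos3-/- over Nos3-/- had 6 higher and 13 lower of 161 (median log2 ratio 0.00, background 6.69% and 6.29%). Klf4deltaECNos3-/- over Klf4deltaEC had 7 higher and 2 lower of 148 (median log2 ratio 0.08, background 3.03% and 2.37%).

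Of 17 measured matrix proteases and inhibitors, 5 reached 0.5 per 10000, and 0 were led by cluster 10 or 13. Timp3, an inhibitor bound to the matrix, led in proximal tubule-like cluster 3 at 40.0 in Klf4deltaEC, 48.9 in Nos3-/-, 43 in Klf4deltaECNos3-/- and 28.8 in the control. Timp2 in cluster 20 was at 1.55 in Klf4deltaEC, 0 in Nos3-/-, 0.919 in Klf4deltaECNos3-/- and 1.45 in the control, where 12 nuclei allow up to 1.32 per 10000 at 0 counts. Mmp16, a membrane-bound metalloproteinase, led in cluster 19 at 0.83 in Klf4deltaEC, 0.639 in Nos3-/-, 0.679 in Klf4deltaECNos3-/- and 1.31 in the control. Mmp23, another metalloproteinase, was higher in podocyte-like nuclei of Klf4deltaECNos3-/- than of the control and of Nos3-/-, at 1.26 (0.63 to 2.28) and 1.08 (0.42 to 2.05). The podocyte marker sums given above were higher in the same comparisons, with 6 of 8 and 8 of 8 markers higher, and their part was not tested. Protease and inhibitor pairs past the limit were 5 higher and 1 lower of 28 for Klf4deltaEC over control (median log2 ratio 0.29, background 2.2% and 1.95%). Nos3-/- over control had 12 higher and 1 lower of 29 (median log2 ratio 0.94, background 6.02% and 4.81%). Klf4deltaECNos3-/- over control had 3 higher and 1 lower of 29 (median log2 ratio 0.23, background 2.97% and 2.01%). Klf4deltaECNos3-/- over Nos3-/- had 2 higher and 7 lower of 26 (median log2 ratio -0.53, background 6.69% and 6.29%). Klf4deltaECNos3-/- over Klf4deltaEC had 0 higher and 3 lower of 26 (median log2 ratio -0.09, background 3.03% and 2.37%). A gene can enter these counts in many clusters, so the pairs and medians do not describe the list gene by gene. Timp3 led at a mean of 40.2 per 10000, while Timp2, the next, led at 0.98. The pairs were not counted by gene.

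Outside the family, the genes whose pattern was most like that of a collagen gene were ranked by the Pearson correlation of log2(value + 0.1) over the 92 columns, among 7862 genes. Columns of a library share depth and columns of a cluster share cells. For Col26a1 they were Kcnh5 (0.89), Spock3 (0.88) and Gprc5b (0.86), and for Col5a2 Nrxn3 (0.87), Fam124a (0.82) and Enox1 (0.79). For Col4a5 they were Ctnnal1 (0.76), Myof (0.72) and Cd2ap (0.71), and for Col4a1 Chn2 (0.74), Vegfc (0.72) and Dpysl3 (0.68). For Col4a3 they were Epb41l5 (0.67), Neat1 (0.67) and Smo (0.63), and for Col4a4 Usp53 (0.67), P3h2 (0.63) and E130308A19Rik (0.63). The highest values belonged to Col26a1 and Col5a2, which few clusters hold, and those of Col4a3 and Col4a4 were lower.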

How the data were processed

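The authors deposited 1 normalized table of 21046 genes by 92 columns (23 clusters in each of 4 libraries), which holds a signal value: every column sums to 10000, so a value is the mean over nuclei of UMIs per 10000 UMIs. Cell Ranger, Seurat and the mm10 build are named, per the submitters' processing notes, with no version. The clustering is the authors'; the sources used here do not describe it, the treatment of doublets or the filters on nuclei. Each column was assigned by its library's title, with 0 left over. The table holds averages, so barcodes shared between libraries could not be counted.

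Nuclei numbers were inferred from the reciprocals of the lowest values, which share the nuclei number as a divisor. At least 75% of them had to divide, and the lowest share found was 92.9%. The step was tested on simulated data. Intervals at 95% are exact Poisson for levels and Clopper-Pearson for ratios without the pseudocount. They cover counting error only, and a level at 0 allows up to 3 counts. Clusters were named where a marker list scored at least 1, led the next by 0.3 and had 3 detected markers, limits set after the table was seen. No other list could have more markers among the 10 leading genes of the cluster, and a shallow cluster needed a marker of its own list there. Log2 ratios used a pseudocount of 0.1 and a filter of 0.5 per 10000 on the higher library, over clusters 0 to 19. Members, lists and limits were chosen with earlier results of these data known. Named were members past the limit with the higher library at 1 per 10000, the type IV genes in clusters 10, 13 and 15, and, per list, the 3 with the highest leading level and those past the limit in these clusters. Python 3.11.15, numpy 2.4.6, pandas 2.3.3, scipy 1.17.1 and matplotlib 3.10.9 were used. Alternatives were another pseudocount, other filters and limits, rescaling by the median ratio within a cluster, a mean weighted by nuclei, all 23 clusters, and each library left out.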

Additional observations from a re-analysis of the deposited data

Results flagged for a closer look

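Col8a1 in proximal tubule-like cluster 3 went opposite ways with the Nos3-/- label on the 2 Klf4 backgrounds. Its log2 ratio was 1.87 for Klf4deltaECNos3-/- over Klf4deltaEC and -2.09 for Nos3-/- over control, a difference of 3.96 on the log2 scale. The levels were 6.13 in Klf4deltaECNos3-/- against 1.6 in Klf4deltaEC, and 0.595 in Nos3-/- against 2.86 in the control. With 1 library per genotype the difference was not tested.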

How the results depend on the processing

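Counts of collagen pairs past the limit depended on the settings, and the cause was not tested beyond what each setting does by construction. With a pseudocount of 0.5 they were 2 for Klf4deltaEC over control (2 higher and 0 lower, against 3 and 5 as reported) and 8 for Nos3-/- over control (4 and 4, against 7 and 12). They were 3 for Klf4deltaECNos3-/- over control (0 and 3, against 2 and 7) and 8 for Klf4deltaECNos3-/- over Nos3-/- (4 and 4, against 8 and 14). The larger number of lower pairs thus did not hold in 3 of these 4 comparisons. It did hold for Klf4deltaECNos3-/- over Klf4deltaEC, with 8 pairs (2 higher and 6 lower, against 3 and 9 as reported). Without a filter the counts were 29 for Klf4deltaEC over control, 48 for Nos3-/- over control, 33 for Klf4deltaECNos3-/- over control, 60 for Klf4deltaECNos3-/- over Nos3-/- and 31 for Klf4deltaECNos3-/- over Klf4deltaEC. With a limit of 1.5 on the log2 scale they were 2, 6, 4, 8 and 4 for the same comparisons, listed alike. With a filter at 1 per 10000 they were 4 for Klf4deltaEC over control and 14 for Klf4deltaECNos3-/- over Nos3-/-. Neither the number of pairs entered nor the background over all genes is given at these other settings. The counts therefore describe the settings and are not a result about collagens. At a limit of 1 per 10000, 9 of 16 genes had 1 leading cluster in every library, against 14 of 21 as reported. Leaving out each library in turn gave 20 to 21 genes with a leading level of 0.5 per 10000, and 15 to 17 genes led by 1 cluster. A gene led by 1 cluster in every library stays so when a library is left out. Apart from the filter, the second count could thus only stay at 14 or rise.

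Of the 134 differences of named collagen genes, 49 were past the limit, 3 of them at levels below the filter. At a pseudocount of 0.5, 27 of these stayed past it and 22 did not, with 0 changes of sign among the 134. Those that did not include Col4a1 in cluster 12 for Klf4deltaEC over control (-0.90), Col4a4 in cluster 6 for Nos3-/- over control (-0.96) and Col6a3 in cluster 13 for Klf4deltaECNos3-/- over Klf4deltaEC (-0.92). Median-ratio rescaling shifted the libraries by -0.28 to 0.16 on the log2 scale. It left 49 of 49 past the limit and changed the sign of 4 others, none over 0.05 in size as reported. Without cluster 18, chosen after seeing the data, Klf4deltaEC over control had 1 higher pair (3 with it), and Klf4deltaECNos3-/- over Klf4deltaEC had 9 pairs in all (12 with it). Without cluster 12, also chosen afterwards, Klf4deltaECNos3-/- over control had 1 higher pair (2 with it) and Klf4deltaEC over control had 2 (3 with it). No background over all genes is given for the counts without these clusters. Depth limits the levels of cluster 12, of cluster 20 in Nos3-/-, and of the 20 low genes. No paired analysis was possible because each genotype has 1 library and no pairing is labelled.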

Other observations

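Some values lie outside the rule for named genes and were chosen after they were seen. Col11a1, a fibrillar collagen known from cartilage, was below 0.5 per 10000 in every cluster mean but stood in principal cell-like cluster 8 at 0.0964 (0.0431 to 0.186) in Klf4deltaEC, 0.12 (0.0289 to 0.326) in Nos3-/-, 0.149 (0.0821 to 0.249) in Klf4deltaECNos3-/- and 0.626 (0.475 to 0.811) in the control. The interval of the control lay above the other 3, with about 57.4 UMIs in the control and 3.5 to 14.3 elsewhere. In thick ascending limb-like cluster 4, Col5a2 was at 1.58 (1.36 to 1.82) in Klf4deltaEC, 0.726 (0.555 to 0.933) in Nos3-/-, 0.772 (0.655 to 0.905) in Klf4deltaECNos3-/- and 1.34 (1.18 to 1.52) in the control, below 1 in both libraries with the Nos3-/- label. In proximal tubule-like cluster 0, Col27a1 was highest in Nos3-/-, at 2.13 (2.0 to 2.28) in Klf4deltaEC, 4.2 (3.94 to 4.47) in Nos3-/-, 2.07 (1.93 to 2.21) in Klf4deltaECNos3-/- and 3.04 (2.89 to 3.2) in the control.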
